A study of Mus musculus with 6 samples.

Results

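The genes described here are 37 genes of the erythroid lineage and of the red cell membrane, read from the RNA of splenic CD8+ T cell preparations. The members are a given list of symbols, matched to the Ensembl IDs of the table and sorted by role. The list was chosen with earlier results of these data known, and no listed gene was left out for its value. Of the 37 genes, 34 were found by symbol and 1 by an older name among the 26181 genes of the table. The 35 with a value all passed the minimum for testing, a mean of 10 normalised counts over the libraries. Tmod1, Trim58 and Tspo2 passed it only through their higher CDAHFD values, so that these 3 had to differ to be tested. Ahsp, which encodes the chaperone of free alpha globin, and Icam4, a red cell adhesion molecule, were not analysed here; the symbol Ahsp had no match in the gene name tables used.

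The libraries came from wild-type C57BL/6 mice that entered the experiment at 6 weeks of age and ate either ND or CDAHFD for 7 weeks. CDAHFD commonly stands for a high-fat diet of defined amino acids without choline, fed as a model of metabolic dysfunction-associated steatohepatitis (MASH), and ND is the comparison diet, not spelled out in the labels. Each diet had 3 RNA-seq libraries of primary CD8+ T cells from the spleen. The isolation method, the purity of the cells, any lysis of red cells, and the number of mice behind a library are not stated. P-values therefore measure the spread between these libraries, which may be technical.

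Red cells develop from progenitors under erythropoietin. Transcription factors, with Gata1, Tal1 and Klf1 at the centre, switch on the genes of haemoglobin, of haem synthesis and of the membrane. The cell then expels its nucleus, and the reticulocyte that is left keeps stored globin and membrane transcripts for a while, although it makes no new RNA. In mice the red pulp of the spleen is a site where red cells are formed as well as one where macrophages take up old ones. RNA of transcription factors is therefore usually read as coming from nucleated precursors, and globin RNA as coming from precursors and reticulocytes alike.

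The promoters of 5 members are shown because they belong to genes that rose in CDAHFD libraries and because they show how differently the same short motifs are placed in genes that rose together. Each window runs from 250 bases before to 50 bases after the start site and is written 5′ to 3′ on the strand of the gene, as RefSeq gives it for build GRCm38.p6. Capitals mark matches, on either strand, to AGATAA (a site of GATA factors), CCACACCC (the CACC box bound by Klf1) and CAGCTG (an E box, bound by Tal1 with its partners). The windows are Hba-a1 at chr11:32283422-32283721, plus strand, Hbb-bs at chr7:103827879-103828178, minus strand, Epor at chr9:21963527-21963826, minus strand, Kel at chr6:41704276-41704575, minus strand and Trim10 at chr17:36869324-36869623, plus strand.
Hba-a1: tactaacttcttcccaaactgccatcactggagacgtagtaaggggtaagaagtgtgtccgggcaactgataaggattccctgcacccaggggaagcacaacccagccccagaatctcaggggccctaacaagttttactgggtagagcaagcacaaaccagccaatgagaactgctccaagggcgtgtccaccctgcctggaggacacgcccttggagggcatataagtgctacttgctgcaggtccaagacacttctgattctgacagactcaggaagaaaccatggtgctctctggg
Hbb-bs: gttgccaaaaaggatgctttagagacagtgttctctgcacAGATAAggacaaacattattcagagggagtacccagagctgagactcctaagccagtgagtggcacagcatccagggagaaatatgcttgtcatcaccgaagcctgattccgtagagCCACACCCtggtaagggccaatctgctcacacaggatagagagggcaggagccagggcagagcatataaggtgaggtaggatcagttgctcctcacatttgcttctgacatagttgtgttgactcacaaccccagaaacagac
Epor: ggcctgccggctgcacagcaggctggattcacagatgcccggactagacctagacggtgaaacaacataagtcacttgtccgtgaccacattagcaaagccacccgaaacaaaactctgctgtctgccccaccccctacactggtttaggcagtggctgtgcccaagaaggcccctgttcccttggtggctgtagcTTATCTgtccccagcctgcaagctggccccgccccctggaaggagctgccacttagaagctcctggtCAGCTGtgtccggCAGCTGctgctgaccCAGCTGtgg
Kel: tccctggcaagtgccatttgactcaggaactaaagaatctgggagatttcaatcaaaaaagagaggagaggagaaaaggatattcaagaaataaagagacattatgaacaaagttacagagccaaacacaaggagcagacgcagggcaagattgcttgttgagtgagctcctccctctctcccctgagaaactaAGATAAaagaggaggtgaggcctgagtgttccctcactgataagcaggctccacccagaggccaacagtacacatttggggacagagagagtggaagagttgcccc
Trim10: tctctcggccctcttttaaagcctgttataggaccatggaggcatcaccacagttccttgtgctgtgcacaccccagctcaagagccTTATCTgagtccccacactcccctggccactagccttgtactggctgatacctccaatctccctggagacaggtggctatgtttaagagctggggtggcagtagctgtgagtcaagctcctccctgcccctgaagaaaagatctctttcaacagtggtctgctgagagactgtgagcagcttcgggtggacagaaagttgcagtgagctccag
The Hba-a1 window held none of the 3 motifs, the Hbb-bs window held an AGATAA and a CCACACCC, Epor an AGATAA and 3 copies of CAGCTG, and Kel and Trim10 an AGATAA each. Of the 28 members with a window, 8 (28.6%) held AGATAA, against 12.7% of the 27025 genes with a window. CCACACCC was found in 2 (7.14%), against 4.09% of all genes, and CAGCTG in 6 (21.4%), against 18.3%. Among the genes with AGATAA were Tal1, Epb42 and Rhd, which rose, and Icam4, whose level was not analysed. The windows of Gata1, which did not pass the test, and of Klf1, which rose, held none of the 3 motifs. These are exact matches of letters in a short window, and they say nothing about binding or about motifs outside it. Variants of the motifs inside the window were not searched. The Hba-a1 window, for one, holds tgataa, which differs from AGATAA in its first letter only and is not marked.

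Most of the 37 listed erythroid genes were higher in CDAHFD libraries, the globins among those with the largest folds. The 4 adult globin genes each rose, and their mean sum went from 676 to 7252 normalised counts, and the anion exchanger Slc4a1, the most abundant protein of the red cell membrane, rose 8.74-fold. Klf1, a transcription factor of erythroid precursors, rose 3.16-fold, while Gata1, the master factor of the lineage, had means of 59.3 ± 8.27 and 62.1 ± 7.86 normalised counts on ND and on CDAHFD. Values after ± are SDs throughout, with n = 3 libraries per diet. Of the 37 genes, 28 rose, Isg20l2 fell, 6 did not pass the test and 2 were not analysed. Across all 15819 genes tested, limma called 47.1%, with 24.6% higher and 22.5% lower in CDAHFD libraries (3886 and 3563 genes). That split depends on the scaling: with libraries scaled to T cell identity genes, 7768 genes were called higher and 1044 lower, the median log2 fold change of all tested genes moved from -0.01 to 0.21, and 31 erythroid genes were called higher and 0 lower. At 2-fold or more, 23 of the 37 genes rose, and 9.43% of all tested genes did. The counts of 28 and 23 include Tmod1, Trim58 and Tspo2, which had to differ to be tested. In bulk RNA, more erythroid cells in the preparation and more of these transcripts per cell cannot be told apart.

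**Figure D1:**
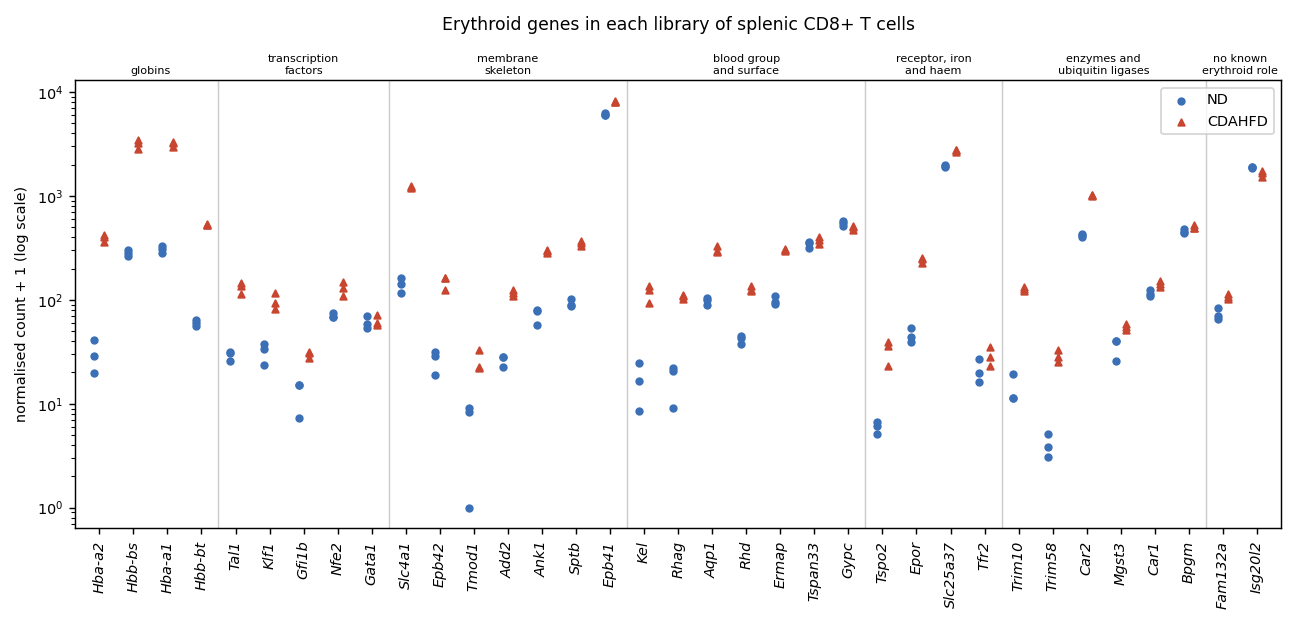
Normalised count + 1 (log scale) of the 35 erythroid genes with a value, 1 point per library (3 ND, circles; 3 CDAHFD, triangles), grouped by role and ordered by fold within a role. In 30 of these genes all CDAHFD points lie above all ND points, as in 27.8% of all tested genes, and Gata1, Gypc, Tspan33 and Tfr2 overlap between diets. Tmod1, Trim58 and Tspo2, which had to differ to be tested, are among the 30.

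The preparations carried T cell RNA at a high level, and genes of other spleen cells moved with the diet. Reads assigned to genes numbered 25314988 to 28067393 per library. The defining markers of the labelled cell type were present on both diets: mean normalised counts went from 32889 to 27886 for the coreceptor gene Cd8a and from 8124 to 7646 for Cd3e. Of 20 T cell identity genes 15 fell and 2 rose, and their summed level was 256586 to 265974 in ND libraries and 221622 to 229682 in CDAHFD libraries. Of 20 genes on the red pulp macrophage list, not all of them particular to that macrophage, 20 rose. Their summed level was 24079 to 26519 in ND libraries and 198516 to 218553 in CDAHFD libraries. The neutrophil list, with 11 of 14 higher, summed to 4068 to 4129.5 in ND libraries and 12292 to 13533 in CDAHFD libraries, and the B cell list, with 10 of 13 lower, to 62296 to 63749.6 in ND libraries and 56014 to 59594 in CDAHFD libraries. No defining marker of these lists was at 0. These values stand beside every rise described below, and their part in it was not tested.

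The globin genes encode the chains of haemoglobin, 2 alpha copies on chromosome 11 and 2 beta copies on chromosome 7 in the mouse. Hba-a1, an alpha copy (chromosome 11, 32283511 to 32284465 in mm10), had 279, 310.2 and 327 normalised counts in the ND libraries and 2979, 3324 and 3232 in the CDAHFD libraries, with replicates 1, 2 and 3 in that order here and below. The lowest CDAHFD library was far above the highest ND library, and the rise was 10.4-fold (log2 fold change of 3.38 with an SE of 0.06, limma adjusted p = 4.03e-26). Hba-a2 (chromosome 11, 32296489 to 32297298), the other alpha copy, had 18.8, 27.6 and 40.5 normalised counts in the ND libraries and 361, 403 and 422 in the CDAHFD libraries, again with no overlap (log2 fold change of 3.79 with an SE of 0.20, limma adjusted p = 1.46e-11).

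Hbb-bs (chromosome 7, 103826534 to 103828096), the more abundant beta copy, had 264, 298 and 284 normalised counts in the ND libraries and 3422, 2800.5 and 3228 in the CDAHFD libraries. Its CDAHFD libraries spread more widely than those of Hba-a1 but lay clear of the ND libraries (log2 fold change of 3.47 with an SE of 0.07, limma adjusted p = 2.95e-24). Hbb-bt (chromosome 7, 103812524 to 103813996), the other beta copy, had 63.6, 55.1 and 59.4 normalised counts in the ND libraries and 529.7, 519.9 and 534 in the CDAHFD libraries and showed the smallest globin rise, 8.89-fold (log2 fold change of 3.13 with an SE of 0.11, adjusted p = 3.43e-19). The median log2 fold change of the 4 globins was 3.43, beside -0.01 over all tested genes.

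How reads were divided within each pair of copies is uncertain. The coding sequences of Hba-a1 and Hba-a2 differ at 1 of 429 bases, and those of Hbb-bs and Hbb-bt at 1 of 444. Of all stretches of 50 bases in the Hba-a1 transcript, 67.5% occur in Hba-a2, and 65.8% of those in Hbb-bs occur in Hbb-bt, while no such stretch of Hba-a1 occurs in Hbb-bs. Even the promoter windows of Hba-a1 and Hba-a2 share a run of 297 of 300 bases, against 14 of 300 for the beta pair. Sums within a pair do not depend on that division as long as shared reads were counted. The summed level of all 4 globins was 625, 691 and 711 in the ND libraries and 7292, 7048 and 7417 in the CDAHFD libraries, a ratio of means of 10.7.

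The balance of alpha to beta globin RNA was compared between diets as a ratio of normalised counts, not corrected for length. This ratio was 0.911, 0.957 and 1.07 in the ND libraries and 0.845, 1.12 and 0.971 in the CDAHFD libraries. Its means were 0.98 ± 0.0827 and 0.98 ± 0.139 (SD, n = 3 per diet), a difference smaller than the spread within either diet. Of 12 embryonic, minor or related globins 4 had a value, and none of those reached the minimum for testing.

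The transcription factors, whose RNA is usually read as coming from nucleated precursors, include several that other lineages share. They rose by 1.84- to 4.63-fold in the 4 genes that were called, beside 8.89- to 13.7-fold for the globins, a difference that was not tested. Klf1 (chromosome 8, 84901928 to 84905291), which drives beta globin and many late erythroid genes, had 32.3, 36.7 and 22.6 normalised counts in the ND libraries and 81.4, 116 and 92.9 in the CDAHFD libraries. The diets did not overlap (log2 fold change of 1.64 with an SE of 0.21, limma adjusted p = 2.49e-07). Tal1 (chromosome 4, 115056426 to 115071755), a partner of Gata1 that also acts in endothelium and stem cells, had 25, 29.6 and 30.2 normalised counts in the ND libraries and 135, 113 and 144 in the CDAHFD libraries and rose 4.63-fold, the largest fold of the 5 factors (log2 fold change of 2.17 with an SE of 0.19, limma adjusted p = 9.61e-11).

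Gfi1b, a repressor of transcription that erythroid and megakaryocyte development needs, had 6.25, 14.3 and 14.1 normalised counts in the ND libraries and 30.7, 26.5 and 30 in the CDAHFD libraries and rose 2.51-fold (log2 fold change of 1.34 with an SE of 0.35, adjusted p = 0.0022). Nfe2, a factor of globin transcription that platelet precursors also need, had 66.7, 73.5 and 67.9 normalised counts in the ND libraries and 108, 129 and 147 in the CDAHFD libraries and rose 1.84-fold (log2 fold change of 0.86 with an SE of 0.16, adjusted p = 4.15e-05). Gata1 (chromosome X, 7959260 to 7978071) had 52.1, 68.4 and 57.5 normalised counts in the ND libraries and 59.2, 71 and 56.1 in the CDAHFD libraries. Its groups overlapped, with the highest and the lowest value of all 6 libraries only 71 and 52.1 (log2 fold change of 0.07 with an SE of 0.19, limma adjusted p = 0.805). The missed threshold does not show that Gata1 was level. In absolute terms the mean of Gata1 differed by 2.79 normalised counts, that of Klf1 by 66.1 and that of Tal1 by 102.

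Gata1 is shared with mast cells, eosinophils and megakaryocytes, whose lists moved unevenly. The defining megakaryocyte and platelet genes Pf4 and Itga2b stood at 4.4 and 93.5 normalised counts on ND and at 3.25 and 86.6 on CDAHFD. Of 18 genes of that list 10 were tested, and 3 of these, Vwf, Clec1b and Thbs1, rose (summed level 1288 to 1439 in ND libraries and 1933 to 2004 in CDAHFD libraries). The mast cell and basophil genes Cpa3 and Mcpt8 stood at 43 and 5.99 on ND and 29.5 and 3.31 on CDAHFD. Of 14 genes of that list only 3 were tested: Hdc rose from 92.5 to 715, Kit fell from 819.8 to 639 and Cpa3 did not pass the test (summed level 946 to 1039 in ND libraries and 1368 to 1497 in CDAHFD libraries). The higher sum of that list on CDAHFD rests on Hdc, and the sum of its other genes was lower. The eosinophil genes Prg2 and Siglecf rose from 8.27 to 55.4 and from 4.64 to 28.5. Of 9 genes of that list 5 were tested, of which 4, these and Ccr3 and Ear2, rose while Il5ra fell from 189 to 87.2 (summed level 725 to 833 in ND libraries and 3220.0 to 3606 in CDAHFD libraries). What these cells add to the levels of Gata1, Gfi1b and Nfe2 was not tested.

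Set beside each other per kilobase of exon, globin RNA outweighed transcription factor RNA more in CDAHFD than in ND libraries. The summed globin level per kilobase over that of the 5 factors was 10.9, 9.75 and 12.1 in the ND libraries and 58.4, 48.3 and 52.5 in the CDAHFD libraries. The diets did not overlap, and the mean ratio went from 10.9 ± 1.18 to 53.1 ± 5.07 (SD, n = 3 per diet). Against Gata1 and Klf1 alone the ratio was 19, 17.1 and 23.9 in the ND libraries and 122, 86.8 and 114 in the CDAHFD libraries. The summed level of the 5 factors itself went per kilobase from 80.3 ± 9.49 to 177 ± 14.1. Within it the mean of Gata1 went from 24.3 to 25.5, that of Nfe2 from 23.2 to 42.8 and that of Gfi1b from 6.32 to 15.9. Klf1 went from 20 to 63.2 and Tal1 from 6.45 to 29.9. How far the ratio changed therefore depends on which factors are summed. Both sums of factors hold Gata1, and against Klf1 or Tal1 alone, which rose more than these sums, the change is smaller. The sums and ratios over listed genes are descriptions without a test.

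**Figure D2:**
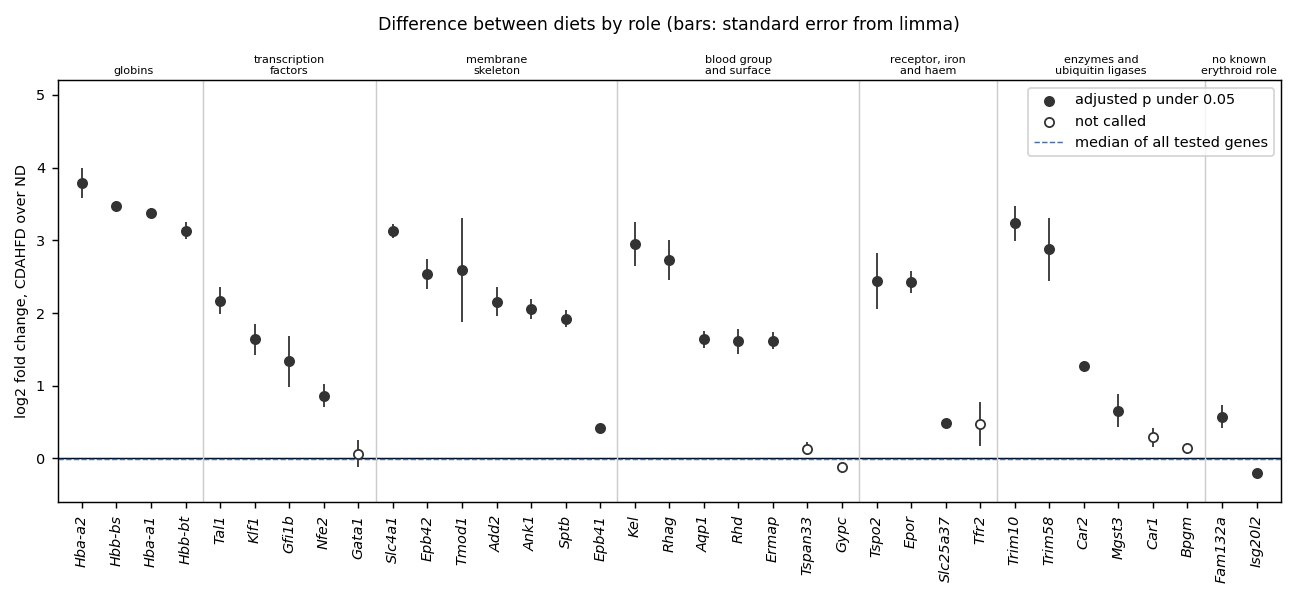
Log2 fold change of CDAHFD over ND for the 35 genes with a value, by role, with the standard error from limma as bars; filled points have an adjusted p under 0.05. The globins lie between 3.13 and 3.79, the transcription factors between 0.07 and 2.17.

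The membrane skeleton is a net of spectrin under the red cell membrane, tied to it through band 3 and ankyrin. All 7 genes of this group rose (median log2 fold change 2.16), with Tmod1 counted although it had to differ to be tested. Slc4a1 (chromosome 11, 102348824 to 102366203), the anion exchanger known as band 3, had 162, 142 and 116 normalised counts in the ND libraries and 1201, 1238 and 1224 in the CDAHFD libraries. The CDAHFD libraries were close together and several times above every ND library (log2 fold change of 3.13 with an SE of 0.10, limma adjusted p = 5.94e-20). Sptb, which encodes the beta chain of erythroid spectrin, had 87.6, 100 and 86.7 normalised counts in the ND libraries and 350.0, 368 and 328 in the CDAHFD libraries (log2 fold change of 1.92 with an SE of 0.12, limma adjusted p = 3.85e-14). Ank1, the ankyrin that links spectrin to band 3, had 78.2, 76.5 and 56.6 normalised counts in the ND libraries and 294, 283 and 301 in the CDAHFD libraries (log2 fold change of 2.05 with an SE of 0.14, adjusted p = 3.10e-13).

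Smaller parts of the skeleton showed the same direction. Epb42, a protein that stabilises the link of ankyrin to band 3, had 30.2, 27.6 and 17.9 normalised counts in the ND libraries and 161, 124 and 162 in the CDAHFD libraries, a rise of 5.9-fold (log2 fold change of 2.54 with an SE of 0.21, adjusted p = 2.47e-11). Add2, the beta chain of adducin, which caps actin filaments, had 27.1, 21.4 and 27.3 normalised counts in the ND libraries and 114, 109 and 124 in the CDAHFD libraries, a rise of 4.57-fold (log2 fold change of 2.16 with an SE of 0.20, adjusted p = 2.65e-10). Tmod1, a tropomodulin that caps the other end of actin, had 7.3, 8.16 and 0 normalised counts in the ND libraries and 21.1, 21.8 and 31.9 in the CDAHFD libraries, with 1 ND library at 0 reads (log2 fold change of 2.59 with an SE of 0.72, limma adjusted p = 0.00951). Without that library, ND replicate 3, the log2 fold change was 1.55 (adjusted p = 0.00241), and without ND replicate 2 it was 3.15. Its call was lost with a pseudocount of 0.5 (adjusted p = 0.0648) and without trend and robust estimation (adjusted p = 0.0728). Epb41, which joins spectrin to actin and is made in many cell types, had 6348, 5953 and 5962 normalised counts in the ND libraries and 8028, 8241 and 8106 in the CDAHFD libraries. Its normalised counts were the highest of all members, not corrected for length, and it rose least of this group, 1.33-fold (log2 fold change of 0.42 with an SE of 0.04, limma adjusted p = 6.31e-10).

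Among the blood group and surface proteins, 5 of 8 genes rose, 2 did not pass the test and Icam4 was not analysed. Kel, the metalloprotease that carries the Kell blood group, had 15.6, 23.5 and 7.54 normalised counts in the ND libraries and 124, 91.9 and 136 in the CDAHFD libraries. Its ND libraries were low and uneven and its CDAHFD libraries all far above them, a rise of 7.55-fold (log2 fold change of 2.95 with an SE of 0.30, limma adjusted p = 1.38e-07). Rhag, the ammonium channel around which the Rh complex is built, had 20.8, 8.16 and 19.8 normalised counts in the ND libraries and 107, 101 and 109 in the CDAHFD libraries (log2 fold change of 2.73 with an SE of 0.27, adjusted p = 5.63e-09). Rhd, the Rh protein that carries the blood group antigen, had 43.8, 36.7 and 42.4 normalised counts in the ND libraries and 136, 123 and 122 in the CDAHFD libraries (log2 fold change of 1.61 with an SE of 0.17, adjusted p = 5.52e-09).

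The remaining surface proteins differed in how far they are restricted to red cells. Ermap, which carries the Scianna blood group, had 108, 89.8 and 94.3 normalised counts in the ND libraries and 303, 293 and 306 in the CDAHFD libraries, a rise of 3.08-fold (log2 fold change of 1.62 with an SE of 0.12, adjusted p = 2.59e-12). Aqp1, the water channel of red cells and of endothelium, had 88.6, 104 and 98.1 normalised counts in the ND libraries and 328, 289 and 295 in the CDAHFD libraries, a rise of 3.14-fold (log2 fold change of 1.64 with an SE of 0.12, adjusted p = 2.09e-12). The endothelial genes Cdh5 and Stab2 went from 48.8 to 33.2 and from 270.0 to 2461 normalised counts. Of 12 genes of the endothelium list 7 were tested, with 3 higher and 3 lower (summed level 5149.6 to 5246 in ND libraries and 7943 to 8237 in CDAHFD libraries). The part of endothelial cells in the level of Aqp1 was not tested. Gypc, glycophorin C, which anchors the membrane to the skeleton and is also made outside red cells, had 508, 544 and 569 normalised counts in the ND libraries and 474, 503 and 511 in the CDAHFD libraries (log2 fold change of -0.12 with an SE of 0.07, adjusted p = 0.184). Tspan33, a tetraspanin of erythroid and activated B cells, had 316, 350.0 and 357 normalised counts in the ND libraries and 399.7, 348 and 376 in the CDAHFD libraries (log2 fold change of 0.13 with an SE of 0.09, adjusted p = 0.227). Gypc and Tspan33 overlapped between diets.

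Genes of hormone response and of iron, haem and globin handling were split: 3 of 5 rose, Tfr2 did not pass the test and Ahsp was not analysed. The 3 include Tspo2, which had to differ to be tested. Epor, the erythropoietin receptor, had 42.7, 52 and 38.7 normalised counts in the ND libraries and 226, 247 and 249.7 in the CDAHFD libraries. Every CDAHFD library stood far above the highest ND library, and the rise was 5.42-fold (log2 fold change of 2.42 with an SE of 0.15, limma adjusted p = 8.04e-14). Tspo2, a cholesterol-binding protein of maturing red cells, had 4.17, 5.1 and 5.66 normalised counts in the ND libraries and 22.2, 35 and 38.7 in the CDAHFD libraries, low throughout but without overlap (log2 fold change of 2.44 with an SE of 0.38, adjusted p = 5.48e-06). Slc25a37, which carries iron into mitochondria, had 1947, 1886 and 1987 normalised counts in the ND libraries and 2769, 2655 and 2759.7 in the CDAHFD libraries, a rise of 1.41-fold (log2 fold change of 0.49 with an SE of 0.04, adjusted p = 2.73e-10). Tfr2, a transferrin receptor that also binds the erythropoietin receptor, had 26.1, 15.3 and 18.9 normalised counts in the ND libraries and 27.5, 34.1 and 22.3 in the CDAHFD libraries, with overlap between diets (log2 fold change of 0.47 with an SE of 0.30, adjusted p = 0.212).

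Of the 6 enzymes and ubiquitin ligases 4 rose, the ligases most, with Trim58 counted although it had to differ to be tested. Trim10, a protein of terminal erythroid differentiation, had 10.4, 18.4 and 10.4 normalised counts in the ND libraries and 133, 127 and 121 in the CDAHFD libraries. No other member outside the globins rose by a larger fold (9.73-fold, log2 fold change of 3.23 with an SE of 0.24, limma adjusted p = 3.27e-12). Trim58, a ligase of late erythroblasts that acts on dynein, had 4.17, 2.04 and 2.83 normalised counts in the ND libraries and 27.5, 32.2 and 24.2 in the CDAHFD libraries (log2 fold change of 2.88 with an SE of 0.43, adjusted p = 2.67e-06). Car2, a carbonic anhydrase of red cells, osteoclasts and other cells, had 421, 432 and 401 normalised counts in the ND libraries and 1025, 1020.0 and 993 in the CDAHFD libraries, a rise of 2.42-fold (log2 fold change of 1.28 with an SE of 0.07, limma adjusted p = 1.08e-15).

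The remaining enzymes showed small differences. Car1, the carbonic anhydrase most typical of red cells, had 114, 108 and 124 normalised counts in the ND libraries and 150.1, 132 and 142 in the CDAHFD libraries. All its CDAHFD libraries were higher than its ND libraries, and it nevertheless missed the threshold (log2 fold change of 0.29 with an SE of 0.13, limma adjusted p = 0.0751). It passed without trend and robust estimation (adjusted p = 0.0335). Bpgm, which makes the bisphosphoglycerate that lowers the oxygen affinity of haemoglobin, had 477, 439.8 and 453 normalised counts in the ND libraries and 491, 529 and 488 in the CDAHFD libraries, likewise without overlap and without passing the test (log2 fold change of 0.14 with an SE of 0.08, adjusted p = 0.14). Mgst3, a microsomal glutathione transferase, had 25, 38.8 and 39.6 normalised counts in the ND libraries and 50.7, 57.8 and 53.2 in the CDAHFD libraries and rose 1.56-fold (log2 fold change of 0.66 with an SE of 0.23, adjusted p = 0.0186). That call was lost with DESeq2 (adjusted p = 0.0593), without ND replicate 1 (0.119) and without CDAHFD replicate 2 (0.0661).

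The list also held a pair of genes with no known erythroid role. Fam132a is the older symbol of C1qtnf12, a secreted protein of the C1q family, and is not the gene of erythroferrone. It had 68.8, 81.6 and 64.1 normalised counts in the ND libraries and 100.4, 106 and 113 in the CDAHFD libraries and rose 1.49-fold (log2 fold change of 0.57 with an SE of 0.16, adjusted p = 0.00388). Isg20l2, a nucleolar exonuclease of ribosomal RNA processing, had 1890.0, 1884 and 1864 normalised counts in the ND libraries and 1733, 1665 and 1521 in the CDAHFD libraries and fell, by 0.20 on the log2 scale (SE 0.05, limma adjusted p = 0.0019). Scaled to the T cell identity genes it was no longer called (log2 fold change 0.029). It alone among the 35 genes had all its CDAHFD libraries below its ND libraries, whereas in 30 of them all CDAHFD libraries were above. Over all tested genes the latter holds for 27.8%. The 30 include Tmod1, Trim58 and Tspo2, which had to differ to be tested.

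**Figure D3:**
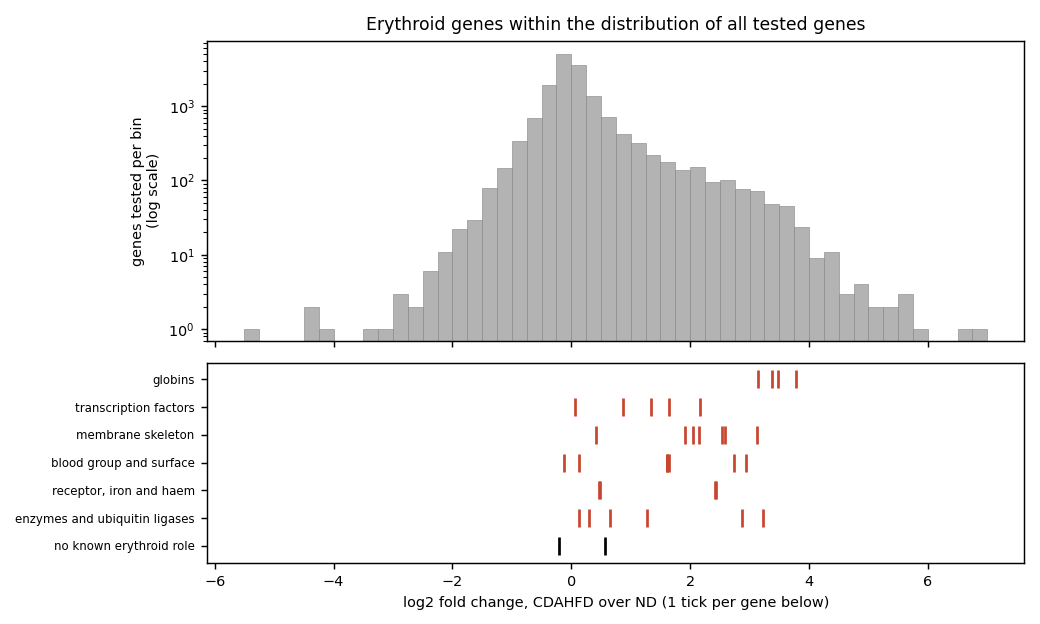
Upper panel: number of tested genes (log scale) per bin of log2 fold change, CDAHFD over ND, for all 15819 genes tested. Lower panel: 1 tick for each of the 35 erythroid genes by role; the globins lie in the right tail, and the median of all 35 is 1.64 against -0.01 for all tested genes.

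Levels can be compared between genes only per length of exon. In CDAHFD libraries Hbb-bs and Hba-a1 stood at 4102 and 3914 normalised counts per kilobase, above all other members. Hbb-bt and Hba-a2 followed at 751 and 593, next to the broadly expressed Isg20l2 at 567 and Epb41 at 509.7. The levels and ranks of single globin copies rest on how shared reads were divided within each pair. Slc4a1 reached 249.7, Epor 121, Klf1 63.2 and Gata1 25.5 per kilobase. In ND libraries the order differed: Isg20l2 stood highest at 649.6, Epb41 at 382, Hba-a1 at 376 and Hbb-bs at 367 followed without differing beyond their spread, and Slc4a1 stood at 28.6, close to Gata1 at 24.3. Hba-a1 and Hbb-bs did not differ beyond their spread in either diet.

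Other erythroid genes, from a list of 49 drawn up beside the members, moved unevenly. Of these, 26 rose, 11 fell, 11 did not pass the test and 1 had no value, with a median log2 fold change of 0.28. Alas2, the erythroid enzyme that starts haem synthesis, had 59.4, 40.8 and 41.5 normalised counts in the ND libraries and 403, 420.5 and 381 in the CDAHFD libraries (log2 fold change of 3.08 with an SE of 0.14, limma adjusted p = 9.52e-17). The diets did not overlap, and it rose 8.5-fold, beside 8.74-fold for Slc4a1. Tmcc2 rose from 61.9 ± 5.86 to 435 ± 9.55, and the poly(A) polymerase gene Tent5c, active in many cells, rose from 2925 ± 80 to 4655 ± 105. The genes named here are all among the 26 that rose. The summed level of this list overlapped between diets, at 79279 to 82436 in ND libraries and 78952 to 80406 in CDAHFD libraries.

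Genes of early progenitors were mostly lower or not called. Of 12 such genes, Csf2rb rose, 4 fell, 2 did not pass the test and 5 lay below the tested minimum. Myb, a factor of progenitors and of lymphocytes, fell from 1789.9 ± 139.7 to 766 ± 35.2 normalised counts, and the stem cell factor receptor Kit fell from 819.8 ± 48.8 to 639 ± 47. The interleukin receptor chain Csf2rb, also a myeloid gene, rose from 1256 ± 72.1 to 2068 ± 96.4. The summed level of the list was 8351 to 8597 in ND libraries and 6905 to 7449 in CDAHFD libraries.

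**Figure D4:**
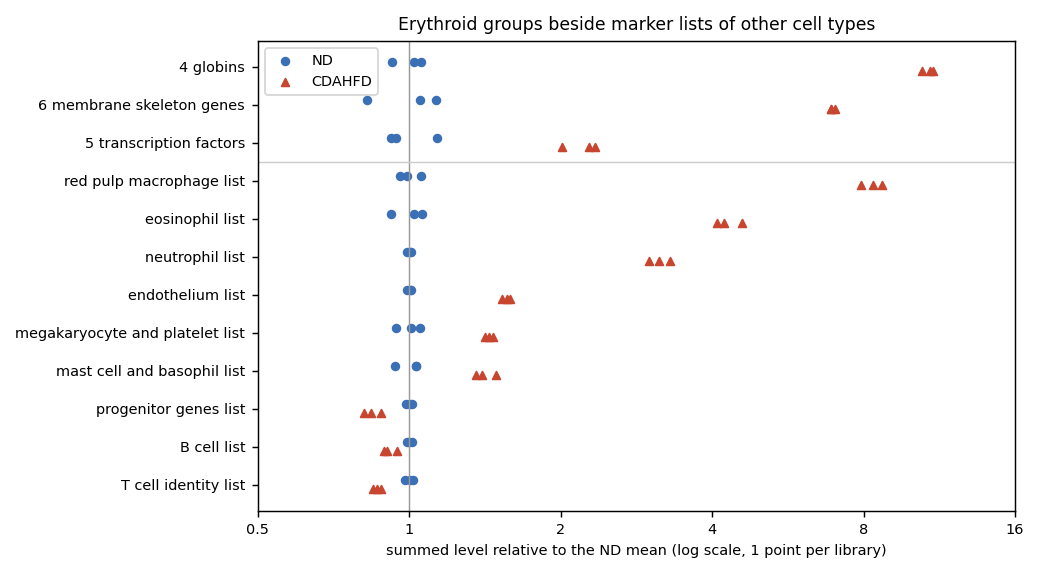
Summed level of erythroid groups (per kilobase of exon; the skeleton without Epb41) and of marker lists of other cell types (normalised counts), each divided by its ND mean, on a log scale with 1 point per library. Slc4a1 makes up most of the skeleton sum. The globins and the red pulp macrophage list stood highest in CDAHFD libraries, at 10.7 and 8.31 times the ND mean, and the T cell, B cell and progenitor lists lie below 1 in CDAHFD libraries.

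The summed red pulp macrophage list stood 8.31 times as high on CDAHFD as on ND, beside 10.7 times for the summed globins. Csf1r, the receptor that macrophages need to survive, rose from 3327 ± 152 to 27030.4 ± 869 normalised counts, and Axl, a receptor for dying cells, from 2234 ± 135 to 18617 ± 392. The macrophage markers Spic and Vcam1 rose from 403 to 3396 and from 3402 to 47155. The part of macrophages in the erythroid values was not tested.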

How the data were processed

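The authors deposited a table of normalised counts, a signal that is read counts per gene divided by 1 factor per library, for 26181 Ensembl IDs. Per the submitters' processing notes the build was mm10. The sources used here give no aligner, counter, strand setting or annotation, and per the labels' protocols either a whole-RNA or an mRNA kit was used, without a library being named. Columns spelled CDHFD were matched to the CDAHFD samples. All values (100% within 0.001) were whole multiples of a column's smallest, which gave whole reads.

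Symbols matched 26147 IDs. Positions and exon lengths came from GENCODE M21 (the same build), promoters from RefSeq (GRCm38.p6). limma 3.58.1 (trend, robust; R 4.3.3) was fitted to log2(normalised count + 1) of the 15819 genes whose mean reached 10, with Benjamini-Hochberg adjustment over all of them. Genes with an adjusted p under 0.05 are said to rise or fall, and folds are ratios of mean normalised counts, beside log2 fold changes on the log2(normalised count + 1) scale. The fit was tested on simulated data. edgeR 4.0.16 called 7536 genes on the recovered reads and DESeq2 1.42.0 called 6755, against 7449 by limma. The other alternatives were pseudocount, filter, scaling, weights, a replicate block, a 2-fold minimum and leaving out each library. The members and lists were chosen with earlier results of these data known. All 35 members are described, from each other list up to 4 called genes with the smallest adjusted p may be named, and defining markers may be named whatever their result. Some genes of these lists are not reported by name here.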

Additional observations from a re-analysis of the deposited data

How the results depend on the processing

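The count of erythroid genes called higher, 28 with all libraries included, ran from 23 (mean of at least 50, where fewer genes are tested, and also at 2-fold or more) to 31 (scaled to T cell identity genes), and from 27 to 28 when each library was left out in turn. At the minimum of 50, Hba-a2, Klf1, Tal1, Epor, Epb42, Rhag, Rhd, Kel, Trim10 and Add2 passed only through their higher CDAHFD values. These genes had to differ to be tested there, and the 23 called at that minimum include them. The count called lower, 1, was 1 under most alternatives but 0 at 2-fold or more. By limma it was also 0 when libraries were scaled to the T cell identity genes, with 0 lower at an unadjusted p under 0.05 there. edgeR and DESeq2, run without that scaling only, called 1 each. The T cell scaling moved the median log2 fold change of all genes from -0.01 to 0.21 and the calls over all genes from 3886 higher and 3563 lower to 7768 and 1044. Relative to it Isg20l2 (log2 fold change 0.029) and Gypc (0.10) turned direction, Tspan33, Car1 and Bpgm became called as higher, and the summed globin ratio was 12.6 in place of 10.7. Gata1, not called in any of these fits, turned direction without ND replicate 1 (-0.020) and without CDAHFD replicate 2 (-0.032), and left-out libraries gave -0.032 to 0.17 in all. Left-out libraries gave summed globin ratios of 10.3 to 11.0, changes of the globin to transcription factor ratio of 4.61 to 5.14 times and of the alpha to beta ratio of 0.927 to 1.07 times. With the replicate number as a block (replicate block) 28 genes were higher and 1 lower. Deviations of same-numbered libraries correlated at 0.04, -0.05 and 0.06, so the numbers were not taken as pairs. Where a result moved, the cause was not tested. Of 35 genes, 27 kept direction and side of the threshold under each of the 18 settings fitted per gene that tested them, a tally that leaves out the 2-fold minimum. Reads are few for Tmod1, Trim58 and Tspo2 in ND libraries, which limits their folds.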

Other observations

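Within the globin pairs the copies did not keep a fixed ratio at low counts. Hba-a1 over Hba-a2 was 14.9, 11.3 and 8.07 in the ND libraries and 8.26, 8.24 and 7.66 in the CDAHFD libraries, and the ND libraries, with few Hba-a2 reads, spread from above to near the CDAHFD values. Hbb-bs over Hbb-bt was 4.15, 5.41 and 4.78 in the ND libraries and 6.46, 5.39 and 6.04 in the CDAHFD libraries, with overlap between diets at ND replicate 2. These ratios rest on how shared reads were divided between near-identical copies.

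Summed globins over the summed red pulp macrophage list, a ratio chosen after the values were seen, was 0.026, 0.026 and 0.0286 in the ND libraries and 0.0334, 0.0355 and 0.0353 in the CDAHFD libraries. The CDAHFD values lay above the ND values, by 1.29 times in the mean, a difference that was not tested. Summed globins over the 6 membrane skeleton genes other than Epb41, per kilobase, was 14.4, 17.1 and 22.4 in the ND libraries and 27.5, 26.4 and 27.4 in the CDAHFD libraries, likewise without overlap and with a wide spread in ND libraries. Slc4a1 made up most of that skeleton sum, with means of 28.6 of 49.8 on ND and 249.7 of 345 on CDAHFD. The ratio therefore mainly sets globins beside Slc4a1.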
